A study of Homo sapiens with 15 samples.

Results

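The genes described here are 50 regulators of mitosis and of the cell cycle, among them the cyclins, the cyclin-dependent kinases, the retinoblastoma and E2F proteins and the machinery of the spindle. They were chosen by symbol, each through the probe set with the highest mean over all arrays among those that the platform annotation gives 1 symbol. This gave 49 of the 50 members among 19775 genes. CDKN2C was not analysed here. The study profiled RNA of the human ovarian cancer line A2780 and of its cisplatin-resistant derivative CP70, which the treatment protocol names A2780/cp70, on Affymetrix arrays. There were 5 groups of 3 biological replicates each. CP70 was profiled with no drug, after decitabine (0.1 µM for 48 h, replaced after 24 h), after PXD101 (0.1 µM for 48 h), and after decitabine for 48 h with PXD101, both at 0.1 µM, added for 24 h. In the 3 drug groups RNA was collected 96 h past drug removal. Decitabine lowers DNA methylation by trapping the methyltransferases, and PXD101, or belinostat, inhibits histone deacetylases. The PXD101 groups thus differed in the length of exposure, no vehicle control is named in the labels, A2780 was not treated, and each line is a single cell line.

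Progress through the cell cycle is driven by cyclins that switch on cyclin-dependent kinases in turn. In G1, D-type cyclins with CDK4 and CDK6 phosphorylate the retinoblastoma protein RB1, which releases E2F transcription factors; cyclin E with CDK2 then carries the cell into DNA synthesis. Cyclin B with CDK1 drives entry into mitosis, and the spindle checkpoint holds separation of the chromosomes back until every kinetochore is attached. Many genes of mitosis are transcribed late in the cycle through a promoter element called CHR (cell cycle genes homology region), placed close to the gene start, and CCAAT boxes upstream of it. Their summed RNA in a culture depends on the share of cells in each phase and on the RNA per cell, which bulk arrays cannot tell apart.

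Promoter letters are shown because most of the mitosis genes described below share these elements. RefSeq promoter windows (GRCh38.p14) were found for 39 of the 50 members, and the 250 bases before the gene start were searched on both strands, taking the first window of the 9 members with more than 1. The CHR was searched as TTTGAA, together with the variant spelling TTCGAA and the variant spelling TTTAAA. The CCAAT box was searched by the letters of its name. E2F sites were searched as TTCGCGC, together with the variant spelling TTGGCGC and the variant spelling TTCCCGC, and the TATA box was searched as TATAAA, which 2 of the 27 mitosis promoters (7.41%) and 8.31% of measured genes held. On the reverse strand a CCAAT box can overlap TTGGCGC, and neighbouring matches can share single bases. The last 150 bases before the gene start follow 5′ to 3′, with matches in capitals. They are shown for 4 mitosis genes that were higher in CP70 and for 3 genes whose untreated CP70 replicates lay apart. The 4 mitosis genes all hold both a CHR and a CCAAT match. The windows of NDC80 and NUF2, which had the largest rises in CP70, and of KIF2C held no match to any of these motifs. The windows are chr1:43358831-43358980 on the plus strand for CDC20, chr16:23678739-23678888 on the plus strand for PLK1, chr15:59104996-59105145 on the plus strand for CCNB2, chr15:90994536-90994685 on the minus strand for PRC1, chr5:69167000-69167149 on the plus strand for CCNB1, chr10:128126424-128126573 on the minus strand for MKI67 and chr19:29811841-29811990 on the plus strand for CCNE1.
CDC20: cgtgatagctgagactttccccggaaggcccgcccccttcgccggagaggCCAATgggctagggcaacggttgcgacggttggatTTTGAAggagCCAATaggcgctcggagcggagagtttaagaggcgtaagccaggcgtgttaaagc
PLK1: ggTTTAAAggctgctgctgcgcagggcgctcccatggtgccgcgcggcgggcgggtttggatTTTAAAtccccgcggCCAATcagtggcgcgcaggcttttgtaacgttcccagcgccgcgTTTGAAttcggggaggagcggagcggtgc
CCNB2: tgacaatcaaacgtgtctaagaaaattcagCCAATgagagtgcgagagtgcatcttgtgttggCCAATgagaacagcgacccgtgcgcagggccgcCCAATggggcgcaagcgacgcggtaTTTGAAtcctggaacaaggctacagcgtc
PRC1: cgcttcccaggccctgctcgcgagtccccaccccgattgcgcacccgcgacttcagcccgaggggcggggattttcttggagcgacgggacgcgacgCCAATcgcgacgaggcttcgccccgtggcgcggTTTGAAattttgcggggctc
CCNB1: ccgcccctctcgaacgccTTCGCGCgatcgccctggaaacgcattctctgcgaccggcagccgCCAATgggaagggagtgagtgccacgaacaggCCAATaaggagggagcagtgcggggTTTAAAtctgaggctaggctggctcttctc
MKI67: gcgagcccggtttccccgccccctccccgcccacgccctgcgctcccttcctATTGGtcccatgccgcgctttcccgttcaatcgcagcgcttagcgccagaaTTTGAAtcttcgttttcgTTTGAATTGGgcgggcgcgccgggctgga
CCNE1: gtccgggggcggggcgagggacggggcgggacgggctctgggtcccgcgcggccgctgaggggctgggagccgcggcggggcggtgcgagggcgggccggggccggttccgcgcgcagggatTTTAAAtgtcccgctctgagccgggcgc
In PLK1, CCNB2 and MKI67 a TTTGAA match began 29 bases before the gene start, in CCNB1 a TTTAAA match began 30 bases before it, and in CCNE1 a TTTAAA match began 28 bases before it. CCAAT boxes began 55 bases before the start in CDC20 and CCNB1, 54 in CCNB2 and 53 in PRC1. The TTTGAA match of PRC1 began at 20 bases. In CDC20 it began at 65 bases, between CCAAT boxes at 100 and 55. A reverse-strand CCAAT box of MKI67 lay at 24 bases, downstream of its TTTGAA matches at 47 and 29.

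A CHR match was found in 18 of 27 promoters of mitosis members (66.7%), against 3 of 12 promoters of G1 members (25%) and 18.5% of the 15384 measured genes with a window. A CHR and a CCAAT box together were found in 16 of the 27 (59.3%), in 2 of the 12 (16.7%) and in 6.89% of the measured genes. E2F letters were found in 41.7% of the G1 promoters, 25.9% of the mitosis promoters and 12.6% of the measured genes. Among 82 promoters of other cell cycle genes, 42.7% held a CHR match. These shares describe letters in a fixed window and do not show binding. The 16 mitosis members with both elements had 6 rises in CP70 against A2780 with a median change of 0.28 log2, and the 11 without both had 4 rises and 1 fall with a median of 0.31. Without untreated CP70 replicate 2, an array that stands apart as described below, the counts were 6 rises and 2 falls against 4 and 2, and with it alone 10 and 0 against 5 and 0.

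**Figure D1:**
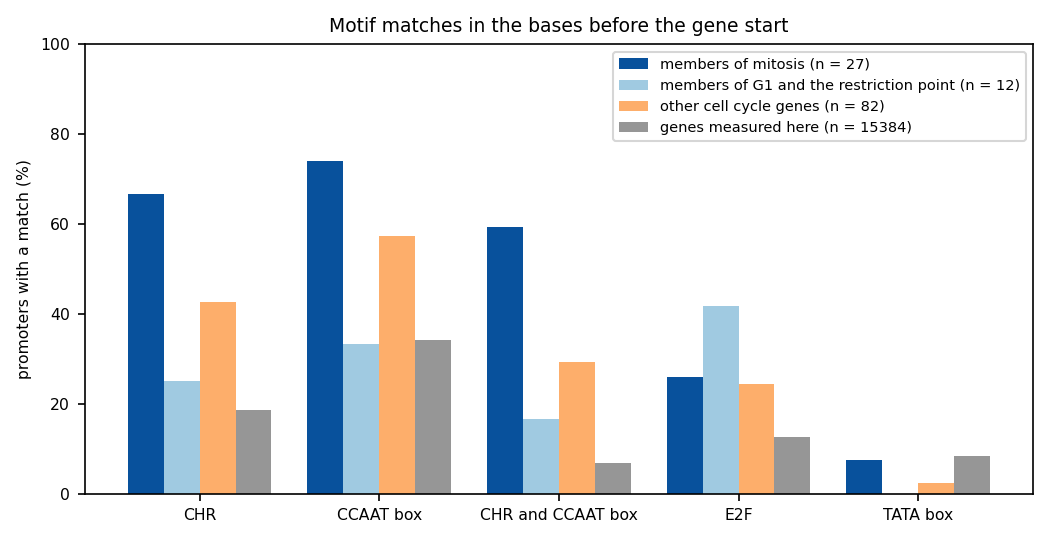
Percent of promoters with at least 1 match to each motif in the 250 bases before the gene start (vertical axis), for 27 mitosis members, 12 G1 members, 82 other cell cycle genes and 15384 measured genes. A CHR and a CCAAT box together were found in 59.3% of mitosis members and 6.89% of measured genes.

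Values of the 49 members ran from 4.86 to 13.19 log2, and no member stayed under 4.34 log2, the lower quartile over all genes, on every array. The arrays were not alike within 1 group. Across all genes, untreated CP70 replicates 1 and 3 correlated at 0.997, but replicate 2 correlated with them at 0.983 to 0.986 and with the PXD101 arrays at 0.995 to 0.997. Counts of members against untreated CP70 are therefore given with all 3 replicates, without replicate 2, and with replicate 2 alone, and single genes with all 3 replicates, with the value for replicate 2 alone where a call against A2780 was lost. Replicate 2 alone is a group of 1 array: its own spread is not measured, limma assumes that it varies like the other groups, and a threshold missed there does not show that values did not differ. The difference between the 3′ and 5′ actin probe sets, a sign of RNA quality, was 0.337 to 0.377 log2 in A2780 and 0.859, 0.629 and 0.646 in untreated CP70 replicates 1 to 3, so that the lines did not overlap in it. It was 0.787 in decitabine replicate 3 and 0.342 to 0.508 on the other treated arrays. Its part in the results was not tested. Of 10 epithelial markers of ovarian carcinoma, MUC16, WT1 and CDH1 lay below 4.34 log2 on every array. KRT18 averaged 7.71 in A2780 and 9.56 in untreated CP70, and EPCAM 6.36 and 7.24. KRT19 went the other way, at 4.68 and 4.37. PAX8 (7.08 and 7.28), KRT7 (6.01 and 6.11), KRT8 (6.54 and 6.68) and MSLN (4.97 and 5.01) differed little. The 10 epithelial markers summed to 53.4 to 55.3 log2 in A2780 and 57.3 to 58.2 in untreated CP70. Leukocyte markers summed to 35.3 to 36.3 log2 over 8 genes on all arrays, with PTPRC, LYZ and NKG7 below 4.34, and 8 fibroblast and endothelial markers to 46.9 to 48.8, with CDH5 and KDR below it. Within the last list members differed in opposite directions between the lines: LUM averaged 4.86 in A2780 and 7.75 in untreated CP70, and PDGFRA 6.74 and 5.17, while COL3A1 was at 12.40 and 12.22. Their part in the results was not tested.

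The first question was how the resistant line differs from its parent. With all 3 replicates, 16 of 49 members were higher in untreated CP70 than in A2780 and 5 were lower at an adjusted p under 0.05 (limma), against 16.1% and 15.2% of all genes. The shares of the members were 32.7% and 10.2%. The median change of the members was 0.23 log2 and that of all genes 0.01. Mitosis members accounted for 13 of the 16 rises and 1 of the 5 falls. The rises were small, with a largest change of 1.94-fold. Counted by arrays, 19 members had all 3 untreated CP70 arrays above all A2780 arrays and 6 had them below, beside 20.6% and 17.7% of all genes. Rank product, the test named in the study's design, called 18 members and 21.0% of all genes in either direction when each difference of a pair of arrays was permuted on its own, and 0 members and 5.28% of all genes when each array's values were permuted over genes. Without replicate 2, 16 members were higher and 14 lower (18.4% and 19.8% of all genes), and with replicate 2 alone 20 were higher and 2 lower (9.67% and 7.37%). Of the 21 members called with all 3 replicates, 21 were called without replicate 2 and 15 with it alone.

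NDC80 and NUF2, genes of the outer kinetochore, had the largest rises among the members. NDC80, which binds spindle microtubules at the kinetochore, was at 9.92, 9.87 and 9.71 log2 in A2780 and at 10.97, 10.67 and 10.74 in untreated CP70 (0.96 ± 0.11, SE; adjusted p = 9.98e-06, limma). NUF2, its partner in the same complex, was at 9.33, 9.41 and 9.38 and at 10.29, 10.12 and 10.35 (0.88 ± 0.11). The groups did not overlap for either gene, and all 12 CP70 arrays, treated or not, lay above A2780. The complex did not rise as a whole. SPC24, a further part of it among the other cell cycle genes, was lower in untreated CP70 with all 3 replicates (-0.99 ± 0.27, adjusted p = 0.0102, limma). NUSAP1, which bundles spindle microtubules, was higher by 0.53 ± 0.08, and KIF2C, a kinesin that shortens microtubules at the centromere, by 0.42 ± 0.09. The other 5 spindle and kinetochore members, KIF11, TPX2, CENPA, CENPE and CENPF, had changes of 0.00 to 0.30 that missed the threshold. The 3 probe sets of CENPF ranged from -0.69 to 0.45, and 1 was called lower when every probe set was fitted.

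Genes of the spindle checkpoint and of anaphase moved in both directions. CDC20, which activates the anaphase-promoting complex, was at 10.83, 10.92 and 10.60 log2 in A2780 and at 11.47, 11.49 and 11.38 in untreated CP70 (0.66 ± 0.11, 1.58-fold). BUB3, a checkpoint protein, was at 11.63, 11.50 and 11.44 and at 12.18, 12.19 and 12.11 (0.64 ± 0.08). TTK, the kinase that starts the checkpoint, went from 9.38, 9.40 and 9.29 to 10.10, 9.82 and 9.96 (0.61 ± 0.09). For all 3 genes each CP70 array lay above each A2780 array. PTTG1, or securin, which holds the protease separase back, was at 11.61, 11.74 and 11.71 in A2780 and at 12.21, 12.21 and 12.06 in CP70 (0.48 ± 0.11); it has close paralogs, so the share of PTTG1 itself in the signal is uncertain. BUB1, the kinase that recruits other checkpoint proteins, was lower, at 9.51, 9.46 and 9.40 against 8.79, 9.26 and 8.49 (-0.61 ± 0.14). With replicate 2 alone, BUB1 was at -0.20 (adjusted p = 0.282). Its 5 probe sets ranged from -0.78 to 0.19, and the 6 of BUB3 from -0.42 to 0.73, so that the probe sets of both genes did not all point the same way. When every probe set was fitted, 2 for BUB1 were called lower and 0 higher, and 5 for BUB3 higher and 0 lower. Some of these probe sets were weak, with means over all arrays down to 3.27 log2 for BUB1 and 4.30 for BUB3.

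Among the genes of mitotic entry, PLK1, the Polo kinase of mitotic entry and spindle assembly, was at 9.02, 9.10 and 8.79 log2 in A2780 and at 9.58, 9.61 and 9.58 in untreated CP70 (0.62 ± 0.10, adjusted p = 2.94e-04, limma). CCNB2, a B-type cyclin, went from 10.90, 10.84 and 10.78 to 11.50, 11.31 and 11.34 (0.54 ± 0.08). WEE1, the kinase that inhibits CDK1, went from 9.61, 9.54 and 9.50 to 9.93, 10.21 and 10.01 (0.50 ± 0.09). CDC25C, the phosphatase that opposes WEE1, went from 7.94, 8.21 and 8.22 to 8.78, 8.44 and 8.51 (0.45 ± 0.12). An inhibitor and an activator of CDK1 were thus both higher, and no array of one line overlapped the other. CCNB2 rested on 1 of its 3 probe sets, the strongest, with a mean of 11.20 log2 over all arrays. The others were weak, at means of 5.51 and 4.12, and reached down to -0.33. The mean of all 3 probe sets, which weighs the weak ones equally, was at 0.01 (adjusted p = 0.949, limma). CDC25C was at 0.31 with replicate 2 alone (adjusted p = 0.210). CDK1 was at 12.07, 11.99 and 11.97 in A2780 and at 11.89, 11.71 and 11.75 in untreated CP70. The difference of -0.22 ± 0.09 missed the threshold (adjusted p = 0.0611, limma). When every probe set was fitted, 2 of the 4 for CDK1 were called lower, with a range of -0.46 to 0.04.

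In cytokinesis, PRC1, which bundles the microtubules of the central spindle, was higher, at 10.33, 10.30 and 10.17 log2 in A2780 against 11.03, 10.85 and 10.86 in untreated CP70 (0.64 ± 0.09). The other 4 genes of this group, AURKB, BIRC5, KIF20A and KIF23, had changes of -0.36 to 0.30 that missed the threshold. The second probe set of KIF23 was at -1.02, and 1 of its 2 was called lower when every probe set was fitted. That second probe set was weak, with a mean of 4.74 log2 over all arrays against 9.84 for the chosen one. The proliferation antigen gene MKI67 was at 9.74, 9.65 and 9.27 in A2780 and at 9.42, 10.23 and 9.14 in untreated CP70 (0.04 ± 0.21, adjusted p = 0.910, limma). Its CP70 replicates lay on both sides of the A2780 range.

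Of the 15 G1 regulators, 3 were higher (20%) and 4 lower (26.7%), beside 16.1% and 15.2% of all genes, with a median of -0.26 log2. Of the 34 mitosis members, 13 were higher (38.2%) and 1 lower (2.94%), with a median of 0.30, and the difference between the groups of members was not tested. This split holds for all 3 replicates and is not given for the other settings. Without replicate 2, 14 members were lower and the member median was 0.05 log2 (shares of all genes above). Mitosis members with a promoter window then had 2 falls among 16 and 2 among 11, with medians of 0.17 and 0.19. CCND2, the D-type cyclin with the smallest p of all members, was at 13.15, 13.15 and 13.19 in A2780 and at 12.05, 11.89 and 11.97 in untreated CP70, which is 2.28-fold lower (-1.19 ± 0.09, adjusted p = 6.67e-08, limma). RB1 was at 9.32, 9.00 and 9.25 against 8.59, 8.27 and 8.46 (-0.74 ± 0.13). CCND3, another D-type cyclin, was at 9.32, 9.45 and 9.28 against 7.68, 8.92 and 7.95 (-1.17 ± 0.24). CCND2 and RB1 were low on all 3 CP70 arrays and with all of their 4 and 2 probe sets, whereas CCND3 was lowest in replicates 1 and 3. With replicate 2 alone, where its call was lost, CCND3 was at -0.43. With all 3 replicates its second probe set, weak at a mean of 4.35 log2 over all arrays, was at 0.13. CCND1 was at 9.98, 10.22 and 10.13 in A2780 and at 9.23, 10.15 and 9.22 in CP70 (-0.58 ± 0.22, adjusted p = 0.0630, limma).

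The E2F factors of G1 rose in 2 of 3 cases. E2F2 was at 8.09, 8.21 and 8.04 log2 in A2780 and at 8.70, 8.98 and 8.54 in untreated CP70 (0.63 ± 0.14), and E2F3 at 8.88, 8.84 and 8.84 against 9.44, 9.24 and 9.46 (0.53 ± 0.10). E2F1 was at 7.81, 8.01 and 8.05 against 7.62, 8.06 and 7.43 (-0.26 ± 0.15, adjusted p = 0.247, limma). CDKN1B, the p27 inhibitor of CDK2, was at 10.20, 10.14 and 10.25 against 10.92, 10.63 and 10.88 (0.62 ± 0.17). The groups did not overlap for E2F2, E2F3 or CDKN1B. With replicate 2 alone, E2F3 was at 0.39 (adjusted p = 0.0647) and CDKN1B at 0.44 (adjusted p = 0.294), and CDKN1B was at 0.56 without replicate 1 (adjusted p = 0.0531). CCNE1, cyclin E1, was lower by 1.12 ± 0.35, but at -0.07 with replicate 2 alone (adjusted p = 0.943), and its adjusted p was 0.0507 to 0.126 without any 1 of the A2780 arrays or CP70 replicates 1 and 3.

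**Figure D2:**
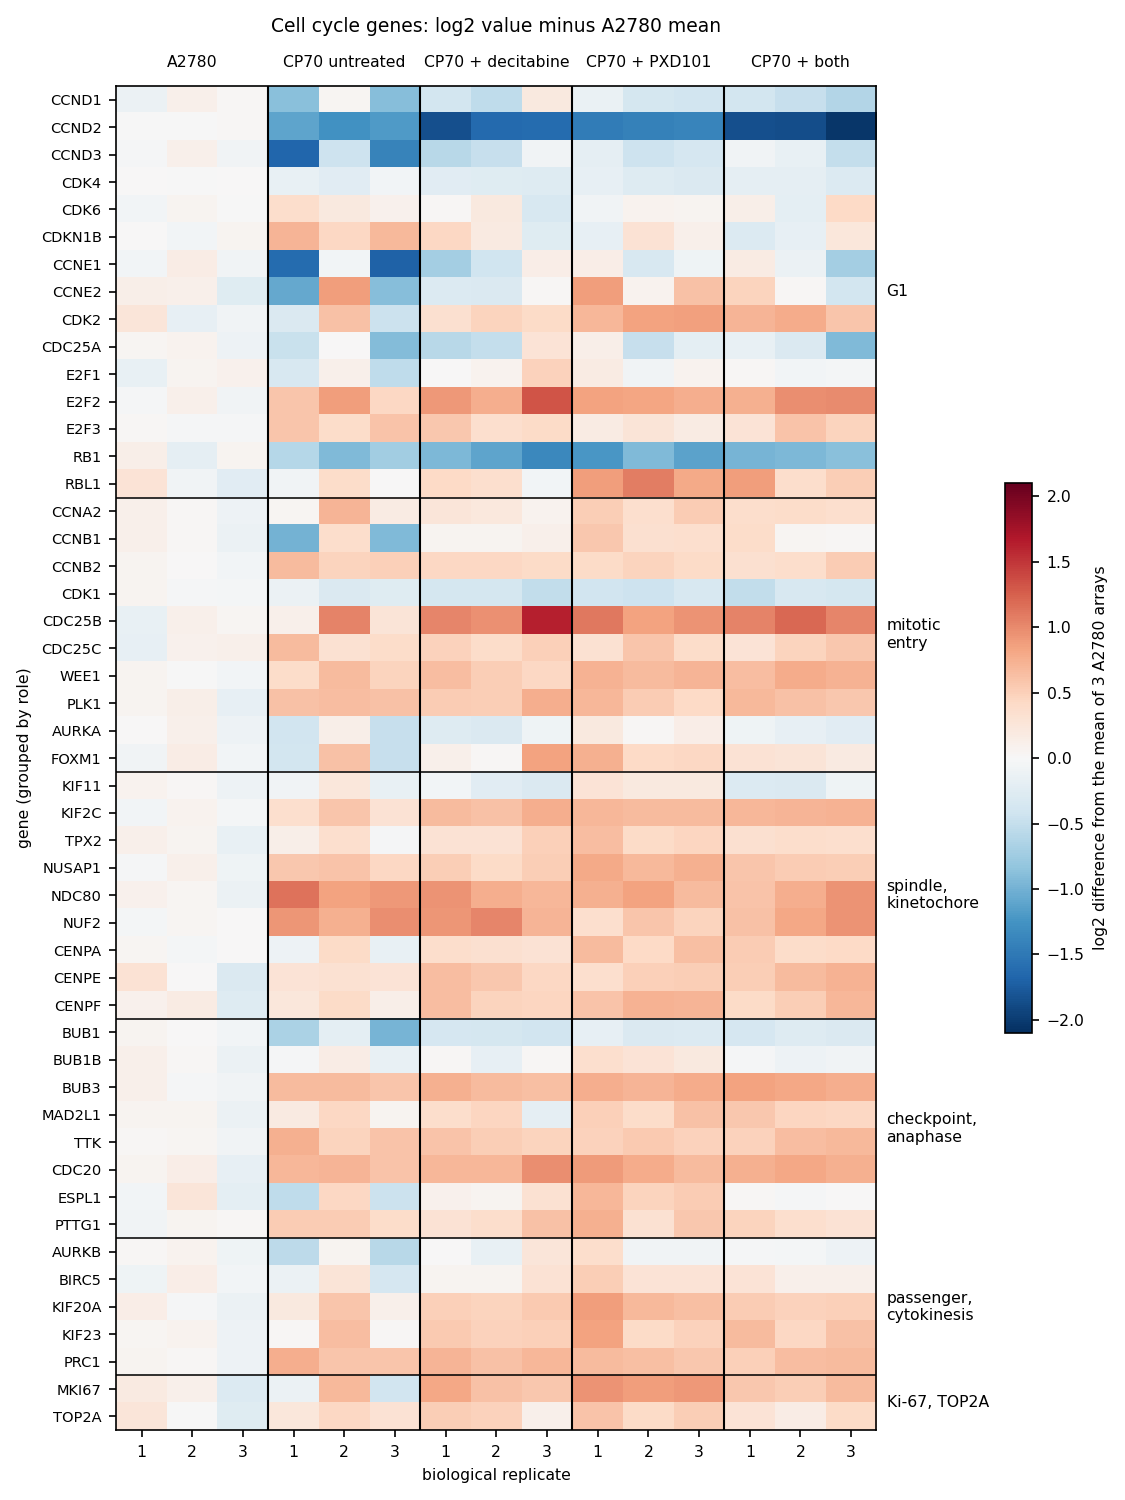
Difference of each of the 49 members (rows, grouped by role) from the mean of the 3 A2780 arrays on the log2 scale (colour), for each array (columns, replicate number below). CCND2 and RB1 are lower and NDC80, NUF2, BUB3, CDC20, TTK and PRC1 higher in all 12 CP70 arrays, while CCND3, CCNE1 and CCNB1 are lowest in untreated CP70 replicates 1 and 3.

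Treated CP70 was also compared with A2780, where no untreated CP70 array enters the difference. A2780 was not treated, so that line and drug cannot be told apart in these comparisons, and all 3 share the same A2780 arrays. With decitabine 22 members were higher than in A2780 and 4 lower (17.0% and 12.9% of all genes), with PXD101 27 and 4 (12.1% and 9.68%), and with both drugs 26 and 4 (17.3% and 13.6%). The median changes of the members were 0.34, 0.50 and 0.37 log2, beside 0.03, 0.02 and 0.01 over all genes. With each array centred on its median, 17 were higher and 7 lower with decitabine and 20 and 7 with both. Centring lowered the median of all genes by 0.15 and 0.13 log2 in these comparisons. Shares of all genes called under centring are not given, here or below, so centred counts describe the members alone. In all 4 CP70 groups 14 members were higher than A2780, namely E2F2, CCNB2, CDC25C, WEE1, PLK1, KIF2C, NUSAP1, NDC80, NUF2, BUB3, TTK, CDC20, PTTG1 and PRC1, and CCND2 and RB1 were lower. Of all genes, 7.86% were called higher in all 4 and 6.84% lower. CCNB2 stands there by its chosen probe set: the mean of its probe sets was at 0.06, 0.12 and 0.00 log2 with decitabine, PXD101 and both (adjusted p of 0.351 to 0.977, limma). That mean takes in its weak probe sets, at means of 5.51 and 4.12 log2 over all arrays. Counted by arrays, 16 members had all 12 CP70 arrays above A2780 (10.9% of all genes did) and 6 had all of them below (9.70%).

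RB1 was lower in each drug group, at 8.25, 8.09 and 7.83 log2 with decitabine, 7.96, 8.26 and 8.06 with PXD101 and 8.21, 8.25 and 8.32 with both. The differences from A2780 were -1.13, -1.09 and -0.93 (SE 0.13 each). CDC25B, a phosphatase that activates cyclin-dependent kinases, was at 8.59, 8.85 and 8.78 in A2780, 8.85, 9.78 and 9.01 in untreated CP70, 9.77, 9.70 and 10.37 with decitabine, 9.85, 9.59 and 9.69 with PXD101 and 9.78, 9.94 and 9.77 with both. It passed the test against A2780 in the 3 drug groups (1.21, 0.97 and 1.09, SE 0.21 each) and not in untreated CP70 (0.47 ± 0.21, adjusted p = 0.106, limma). CDK1 was lower than in A2780 by 0.42, 0.40 and 0.41 log2 (SE 0.09 each) with decitabine, PXD101 and both by its chosen probe set. By the mean of its 4 probe sets CDK1 missed the threshold with PXD101 (-0.38, adjusted p = 0.0542) and with both drugs (-0.20, adjusted p = 0.293, limma), where 1 of them reached 0.32. CDK4, the partner of the D-type cyclins, was lower by 0.26, 0.25 and 0.22 (SE 0.08 each). CDK4 lost its call without any 1 of the A2780 replicates (adjusted p of 0.0501 to 0.0953). MKI67 was at 10.37, 10.17 and 10.11 with decitabine, 10.49, 10.42 and 10.46 with PXD101 and 10.12, 10.07 and 10.21 with both, and every one of these arrays lay above the A2780 arrays. Its differences from A2780 were 0.66, 0.90 and 0.58 (SE 0.21 each), of which the first and the last missed the threshold without A2780 replicate 3 (0.52, adjusted p = 0.112; 0.44, adjusted p = 0.182; limma). Both also missed it with centred arrays (adjusted p = 0.0685 and 0.103, limma). The decitabine difference further missed it without decitabine replicate 1 or 2. The difference with both drugs missed it without A2780 replicate 2, without any 1 array of that group and with repeated quantile normalization. KIF23, a kinesin of the central spindle, was higher by 0.51, 0.58 and 0.57 by its chosen probe set, but at -0.40, -0.02 and -0.32 by the mean of its 2 probe sets. The second of these was weak, at a mean of 4.74 log2 over all arrays.

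**Figure D3:**
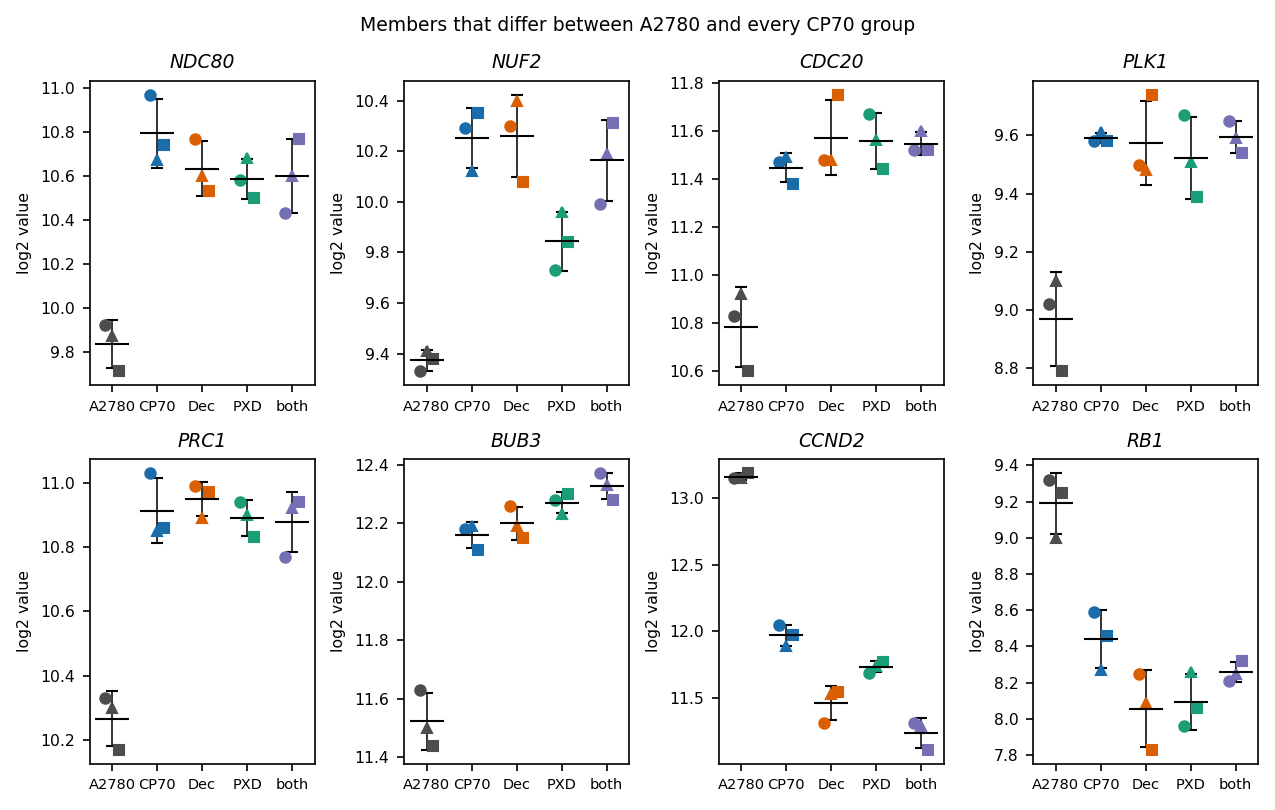
Log2 values (vertical axes, each with its own range) of 8 members on each of the 15 arrays by group; circles, triangles and squares are replicates 1, 2 and 3, and bars give the mean and SD of 3 arrays. NDC80, NUF2, CDC20, PLK1, PRC1 and BUB3 are higher, and CCND2 and RB1 lower, on all CP70 arrays than on A2780 arrays, and CCND2 is lowest with both drugs.

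Untreated CP70 replicates lay apart in a part of the members. CCNE2 and FOXM1 were chosen after their values were seen. CCNE2, cyclin E2, was at 7.51, 9.47 and 7.69 log2 in replicates 1, 2 and 3, CCNE1 at 7.34, 8.89 and 7.26, and CCNB1, the cyclin of mitotic entry, at 10.41, 11.78 and 10.49. FOXM1, a transcription factor of late cell cycle genes, was at 8.46, 9.46 and 8.35. In each of these, replicate 2 was high and the others were low and close to each other. The PXD101 means were 9.11 for CCNE2, 8.86 for CCNE1, 11.83 for CCNB1 and 9.37 for FOXM1, near replicate 2. Over all members, replicate 2 exceeded the mean of replicates 1 and 3 by more than 0.5 log2 in 19 of 49 (38.8%) and lay below it by as much in 0, against 11.6% and 7.61% of all genes. It was nearer to the PXD101 mean than to the mean of replicates 1 and 3 in 39 members (79.6%), as it was in 67.9% of all genes. For NDC80, NUF2, TTK, RB1, CCND2 and PLK1, replicate 2 lay within 0.3 log2 of the mean of replicates 1 and 3. These are values of single arrays and have no test.

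**Figure D4:**
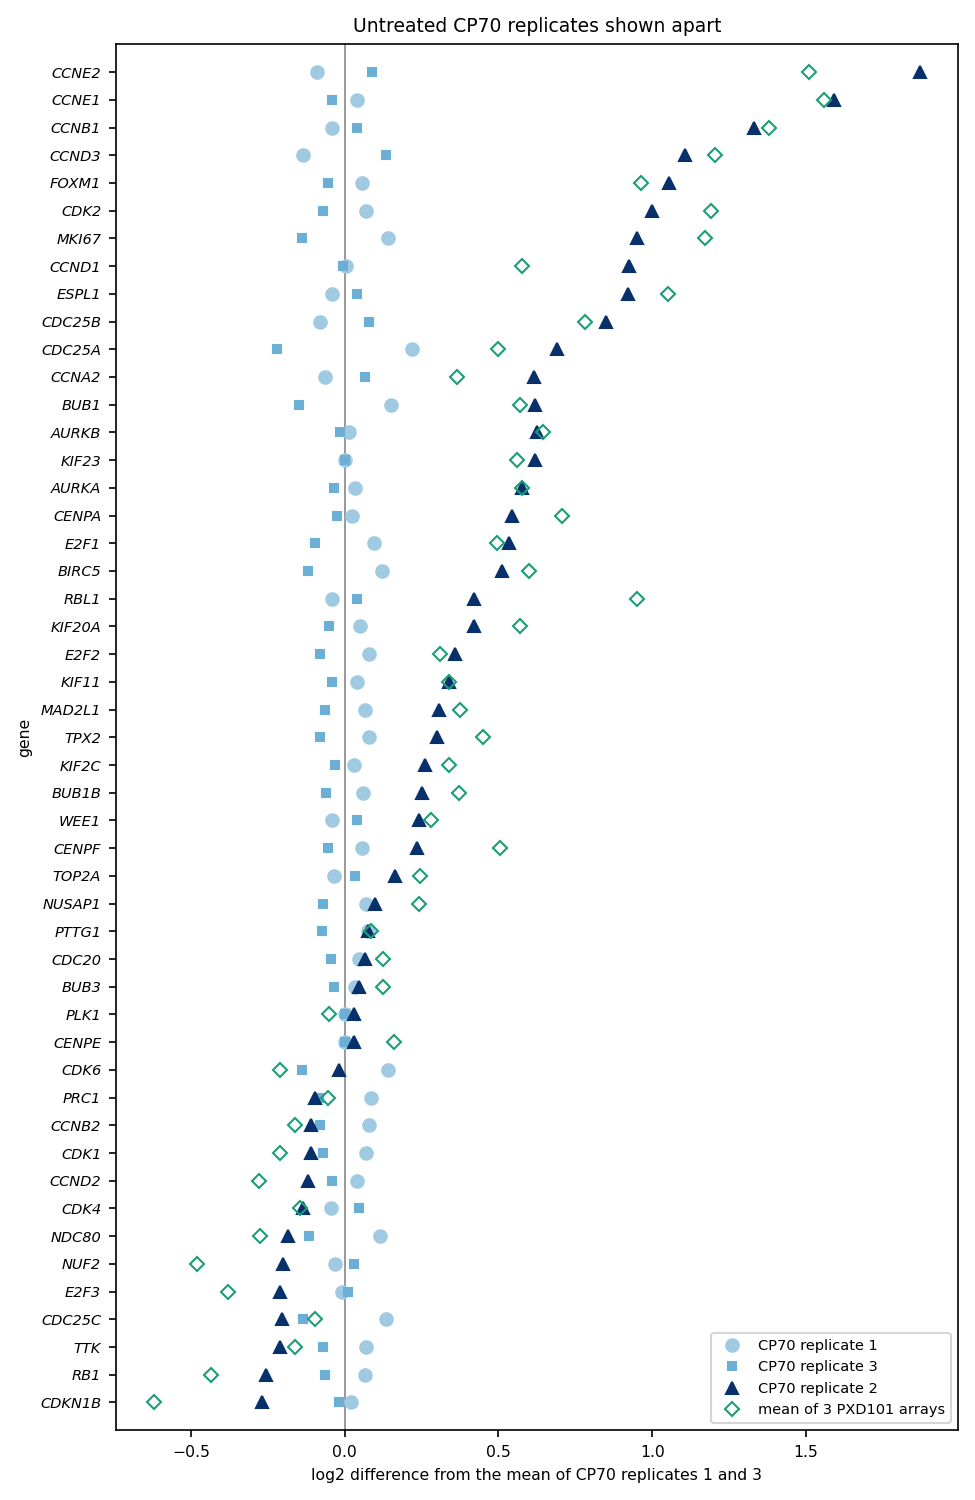
For each member (rows, ordered by the position of replicate 2), log2 difference of untreated CP70 replicates 1, 2 and 3 and of the mean of 3 PXD101 arrays from the mean of CP70 replicates 1 and 3 (horizontal axis). Replicate 2 lies to the right by 1.87 for CCNE2, 1.59 for CCNE1 and 1.32 for CCNB1, and the PXD101 means run close to it.

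The question of the PXD101 group was which genes a deacetylase inhibitor alone changes in the resistant line. With all 3 replicates 9 members rose and 1 fell, against 5.57% and 5.15% of all genes (7 and 3 with each array centred on its median), with a member median of 0.25 log2 beside 0.01 over all genes. RBL1, or p107, a relative of RB1, was at 5.81, 6.27 and 5.89 in untreated CP70 and at 6.76, 6.96 and 6.69 with PXD101 (0.81 ± 0.18, adjusted p = 0.0224, limma); its 4 probe sets ranged from -0.11 to 0.81. MKI67 rose by 0.86 ± 0.21 and CDK2 by 0.85 ± 0.21, from 7.89, 8.82 and 7.75 to 8.90, 9.05 and 9.06. CENPA, the histone variant of centromeres, went from 8.21 ± 0.32 (SD, n = 3), with replicate 2 highest at 8.57, to 8.83, 8.58 and 8.79 (0.53 ± 0.13), and ESPL1, or separase, from 8.48, 9.44 and 8.56 to 9.71, 9.48 and 9.54 (0.75 ± 0.20). The groups did not overlap for these 5 genes, although the replicate 2 values of CENPA, ESPL1 and CDK2 came within 0.1 log2 of a PXD101 array. CCND3 (0.84, with -0.10 by its weak second probe set), CCNB1 (0.94), CENPF (0.43) and KIF20A (0.43) also rose, and NUF2 fell by 0.41 ± 0.11, from 10.29, 10.12 and 10.35 to 9.73, 9.96 and 9.84.

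The count with PXD101 depended on which untreated arrays were used. Without replicate 2, 26 members rose and 5 fell (16.9% and 12.1% of all genes). Without untreated replicate 1 or 3, or without any 1 of the PXD101 replicates, limma called 0 members. When only the arrays compared entered the fit, 0 members passed. The shares of all genes in these fits are not given, so a count of 0 does not set the members apart. By the unadjusted p in the fit of all 15 arrays, 23 members were higher and 5 lower, beside 15.3% and 12.2% of all genes. Rank product called 13 members with pairs permuted (16.3% of all genes) and 0 with arrays permuted (1.81%). Against replicate 2 alone, an array without replicates, limma called 0 members and 0 of all genes, and the 9 differences that had passed as rises lay between 0.06 and 0.53 log2.

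The decitabine group asked which genes change in CP70 when DNA methylation is lowered. Of the 49 members 1 rose and 1 fell, against 4.87% and 3.14% of all genes; with each array centred on its median 0 rose and 4 fell. CCND2 fell from 12.05, 11.89 and 11.97 log2 to 11.31, 11.53 and 11.54 (-0.51 ± 0.09, adjusted p = 0.00251, limma), with no overlap. CDC25B rose by 0.73 ± 0.21 (adjusted p = 0.0448), but replicate 2 of untreated CP70 lay within the decitabine range. Without replicate 2, 19 members rose and 3 fell (14.2% and 9.44% of all genes). With replicate 2 alone 0 rose and 1 fell (2.45% and 1.30%), namely CCNA2, cyclin A2 (-0.54), while CCND2 was at -0.43 (adjusted p = 0.0860) and CDC25B at 0.17. Without untreated replicate 1 or 3, or without decitabine replicate 3, CCND2 alone was called (share of all genes not given). Rank product called 8 members with pairs permuted (14.6% of all genes) and 0 with arrays permuted (1.89%). The epithelial markers summed to 62.7 to 64.0 log2 with decitabine and 63.5 to 64.1 with both drugs, above the 56.5 to 57.1 with PXD101 alone. Part of the list moved: from untreated CP70 to decitabine, KRT19 averaged 4.37 and 7.04, KRT8 6.68 and 8.05, KRT18 9.56 and 10.52 and EPCAM 7.24 and 7.95. PAX8 (7.28 and 7.30), KRT7 (6.11 and 6.22), MSLN (5.01 and 5.13) and the low MUC16, WT1 and CDH1 stayed near their untreated means. Their part in the results was not tested.

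With both drugs 3 members rose and 2 fell against untreated CP70 (6.17% and 4.22% of all genes), or 1 and 2 with each array centred on its median. CCND2 fell to 11.31, 11.29 and 11.11 log2 (-0.73 ± 0.09, adjusted p = 8.54e-05, limma), which was 1.66-fold lower than untreated. It was the member whose fall also passed with replicate 2 alone (-0.65). CDKN1B fell from 10.92, 10.63 and 10.88 to 9.91, 10.02 and 10.44 (-0.69 ± 0.17), CCND3 rose by 0.92 ± 0.24, CDK2 by 0.74 ± 0.21 and KIF2C by 0.29 ± 0.09. CCND3 and CDK2 overlapped between the groups because replicate 2 of untreated CP70 reached the treated range. Without replicate 2, 19 members rose and 2 fell (15.1% and 9.81% of all genes), and with replicate 2 alone 0 rose and 1 fell (2.89% and 1.48%). Without untreated replicate 1 or 3, or without replicate 1 or 2 of both drugs, CCND2 alone was called (share of all genes not given). Rank product called 10 members with pairs permuted (15.9% of all genes) and 0 with arrays permuted (2.24%).

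**Figure D5:**
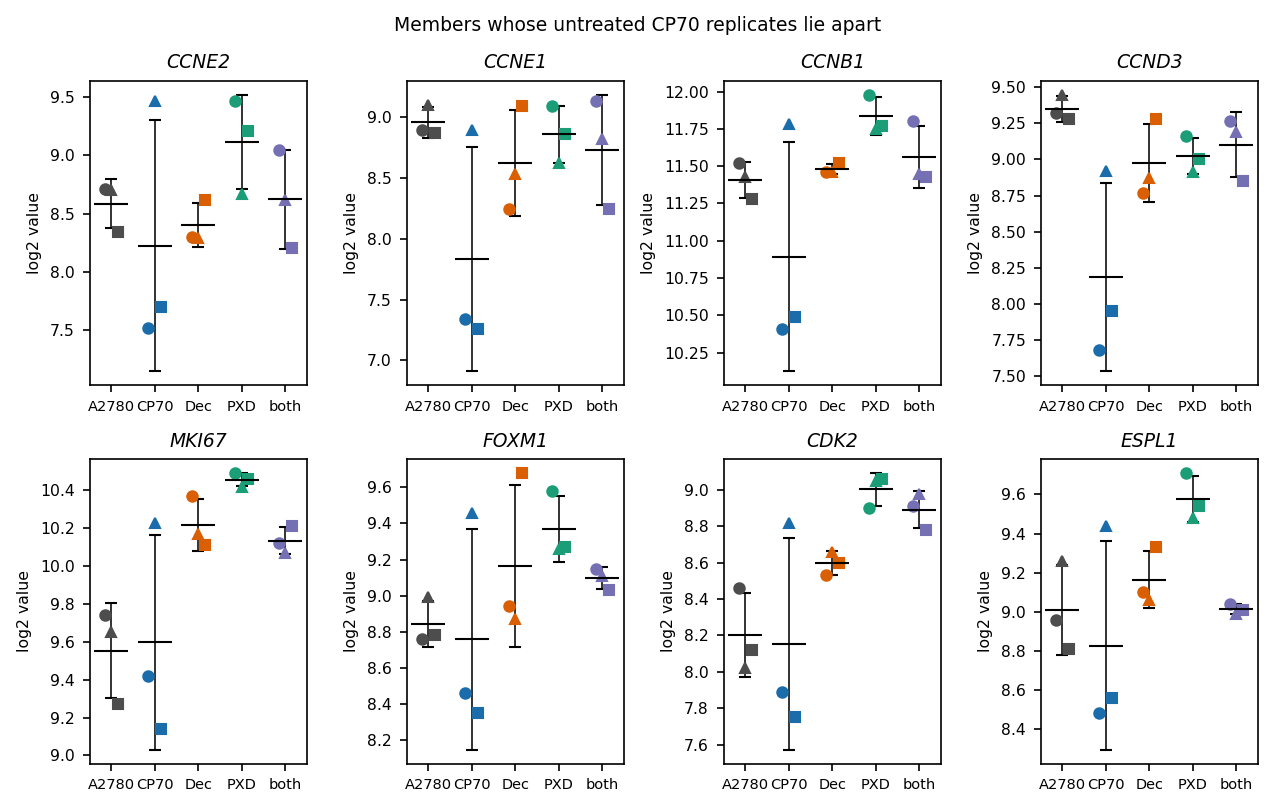
Log2 values (vertical axes, each with its own range) of 8 members on each of the 15 arrays by group; circles, triangles and squares are replicates 1, 2 and 3, and bars give the mean and SD of 3 arrays. In untreated CP70 the triangle, replicate 2, stands above the others in all 8 panels, at 9.47 against 7.51 and 7.69 for CCNE2.

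The drug groups were also compared with each other, where no untreated array enters the difference. Decitabine against PXD101 gave 1 member higher and 2 lower (4.90% and 3.26% of all genes), or 0 and 5 with each array centred on its median. RBL1 was lower with decitabine, at 6.31, 6.25 and 5.83 log2 against 6.76, 6.96 and 6.69 (-0.67 ± 0.18), and so was KIF11, the kinesin that pushes spindle poles apart, at 9.98, 9.80 and 9.72 against 10.31, 10.23 and 10.23 (-0.42 ± 0.11). NUF2 was higher, at 10.30, 10.40 and 10.08 (0.42 ± 0.11, adjusted p = 0.0303, limma). Without decitabine replicate 2 or PXD101 replicates 1 or 3 limma called 0 members. Without decitabine replicate 3 or PXD101 replicate 2 it called 1 (shares of all genes not given). Other probe sets of RBL1 reached 0.11. Both drugs against PXD101 alone gave 0 higher and 3 lower (5.91% and 4.03% of all genes). CCND2 was at 11.69, 11.74 and 11.77 with PXD101, so that it was lower with both drugs by 0.50 log2 (SE 0.09), KIF11 was at 9.74, 9.73 and 9.94 with both drugs (-0.45 ± 0.11), and the checkpoint kinase-like BUB1B was at 10.55, 10.48 and 10.51 against 10.94, 10.86 and 10.78 (-0.34 ± 0.10). BUB1B missed the threshold without any 1 of the 6 arrays (adjusted p of 0.0637 to 0.155, limma). Without PXD101 replicate 1 or replicate 2 of both drugs, CCND2 alone was called (share of all genes not given). The 4 probe sets of CCND2 ranged from -0.54 to 0.08. KIF11 was thus lower on all 6 arrays with decitabine than on all 3 with PXD101 alone. Untreated CP70 was at 9.96, 10.26 and 9.88 for KIF11. Against it decitabine was at -0.20, PXD101 at 0.22 and both drugs at -0.23, and none of these was called. The exposure to PXD101 was 48 h alone and 24 h in the combination, so that length of exposure and added decitabine cannot be told apart in the second comparison.

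Between both drugs and decitabine alone, limma called 0 members, beside 0.0101% and 0% of all genes. By the unadjusted p, 0 members were higher and 1 lower, beside 1.94% and 2.76% of all genes. The member differences ran from -0.26 to 0.35 log2 with a median of 0.01. The change with decitabine was compared with and without PXD101 as an interaction. PXD101 was given for 48 h alone and for 24 h in the combination. Length of exposure and a non-additive response can therefore not be told apart in this interaction, in any of the fits below. With all arrays limma called 0 members (0.0152% of all genes higher and 0% lower). By the unadjusted p 2 members were higher and 10 lower, beside 8.56% and 9.53% of all genes. Without untreated CP70 replicate 2, limma called 1 member higher and 19 lower (8.66% and 11.9% of all genes), and with replicate 2 alone 0 members and 0% of all genes.

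Of 93 other measured cell cycle genes, 28 were higher (30.1%) and 14 lower (15.1%) in untreated CP70 than in A2780, beside 16.1% and 15.2% of all genes, with a median of 0.09 log2. All shares of all genes printed in this paragraph are those with all 3 replicates. The shares without replicate 2 and with it alone differ from these. They are given with the member counts of each comparison above. Without replicate 2 the counts were 28 and 34, and with replicate 2 alone 30 and 8. Those with the smallest p were SKA1, of the kinetochore (1.14 ± 0.12), RACGAP1, of cytokinesis (0.67 ± 0.09), the mitotic kinase NEK2 (0.71 ± 0.09) and CDKN2B, the p15 inhibitor of CDK4 and CDK6 (2.48 ± 0.25), for rises. CKAP2, a spindle protein (-0.99 ± 0.10), CDC16, of the anaphase-promoting complex (-1.10 ± 0.13), BORA, which activates PLK1 (-0.78 ± 0.12), and CCNG1 (-0.74 ± 0.12) were lower. These 8 genes were called in the same direction without replicate 2 and with it alone. Against untreated CP70, 18 of the 93 rose and 5 fell with PXD101 (5.57% and 5.15% of all genes did), 52 and 9 without replicate 2 and 0 and 0 with it alone. With decitabine 3 rose and 3 fell (4.87% and 3.14%), 33 and 7 without replicate 2 and 1 and 2 with it alone. With both drugs 7 rose and 2 fell (6.17% and 4.22%), 39 and 4 without replicate 2 and 2 and 2 with it alone. Among these genes, CDKN1A, the p21 inhibitor of cyclin-dependent kinases, was lower in untreated CP70 than in A2780 (-0.95 ± 0.21) and fell further with PXD101 (-0.79 ± 0.21), but with replicate 2 alone the difference with PXD101 was -0.24 ± 0.23 and missed the threshold. It rose by 0.91 ± 0.21 with decitabine and by 0.93 ± 0.21 with both drugs, which also passed with replicate 2 alone (1.46 and 1.48), and was higher with decitabine than with PXD101 by 1.70 ± 0.21 (adjusted p = 1.43e-04, limma).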

How the data were processed

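RNA was profiled on 15 Affymetrix arrays, 3 per group, grouped by title. The authors deposited log2 values for 54675 probe sets; that they are log2 was judged by their range. The submitters' processing notes name R 2.10.1 and affy. How background was corrected and arrays were normalized is not stated in those notes. Of the probe sets, 62 controls were left out, 41097 had 1 platform symbol, 1801 several and 11777 none; symbols were updated by Entrez ID to RefSeq. The probe set of highest mean stood for a gene (19775 genes; 32 members had more than 1).

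All 10 pairs of groups and the drug interaction were fitted with limma 3.58.1 in R 4.3.3 on all arrays, with Benjamini-Hochberg adjustment over all genes and a threshold of 0.05. Rank product used 100 permutations and 5% false positives (numpy 2.4.6). Its first null permuted each difference of a pair of arrays separately, although these differences share arrays. A second null, which permutes each array's values over genes, was added after the counts of the first had been seen, and both are given. All were tested on simulated data, where the first null called many unchanged genes and limma and the second null few. Arrays carry no read depth, so their number sets the precision.

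Members given array by array were the called ones with the smallest p, up to 6 per role against A2780 and up to 5 in other comparisons, plus MKI67, CCNB1, CDK1, PLK1, CCND1, CCND2, CDKN1B, E2F1 and RB1. Members, lists and comparisons were chosen with earlier results of these data known. Alternatives were array weights, other normalizations, the mean of all probe sets, a filter on low genes, a replicate block, the arrays compared alone and leaving out each array.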

Additional observations from a re-analysis of the deposited data

How the results depend on the processing

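Of 131 called gene results, 72 kept the call under every alternative; of 1737 alternative values, 1479 kept direction and side of the threshold, 255 missed the threshold and 3 turned direction. Those 3 are KIF23 by the mean of its probe sets, at -0.40 with decitabine, -0.02 with PXD101 and -0.32 with both drugs against A2780. This mean takes in a weak probe set, at 4.74 log2 over all arrays against 9.84 for the chosen one. Member counts below are those called by limma, against 21 for CP70 against A2780 and, against CP70, 2 with decitabine, 10 with PXD101 and 5 with both. No share of all genes is given beside these limma counts here, so they describe the members alone. With array weights, which were 5.127 for CP70 replicate 3 and 0.158 for replicate 2, they were 36, 27, 37 and 30, with 10 for decitabine against PXD101, 8 for both drugs against PXD101 and 28 for the interaction. With only the arrays compared, 0, 0 and 1 were called with decitabine, PXD101 and both against CP70, and 5 for both against PXD101. Centring each array on its median lowered the median of all genes by 0.12 log2 for decitabine against CP70, by 0.10 for both drugs against CP70, by 0.15 and 0.13 for these groups against A2780 and by 0.07 for decitabine against PXD101. It gave 4 with decitabine (0 higher, 4 lower), 3 with both and 5 for decitabine against PXD101; repeated quantile normalization and the mean of all probe sets each gave 5 there. With CP70 replicate 2 alone, 1, 0 and 1 were called against CP70. Rank product with separately permuted pairs, as first run, gave 18, 8, 13 and 10 members in its 4 comparisons. With each array's values permuted, an alternative chosen after seeing the data, it gave 0 in each, and 529 higher and 515 lower genes in place of 2167 and 1994 for CP70 against A2780. The cause of these shifts was not tested.

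Deviations from the group means were correlated between arrays of different groups. Same-numbered arrays were at -0.38 to 0.49 (median 0.0223, 7 of 30 above 0.1), and arrays of other numbers had a median of -0.0187. Untreated CP70 replicate 2 stands apart and so weighs on the deviations of its whole group. Whether the numbers pair the samples can therefore not be decided from these values. With a replicate block 1 member was called with decitabine and 6 with PXD101 against CP70.

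Median member changes moved as follows. For CP70 against A2780 they were 0.05 by the mean of probe sets, 0.04 with array weights and 0.43 with replicate 2 alone. Against CP70, decitabine gave 0.25 with array weights, 0.00 centred and -0.10 with replicate 2 alone, PXD101 gave 0.01 with replicate 2 alone, and both drugs gave 0.35 with array weights and -0.07 with replicate 2 alone. Decitabine against PXD101 was -0.13 by the mean of probe sets and -0.15 centred, and both against PXD101 -0.15 centred. Against A2780, decitabine gave 0.19 under both of these, PXD101 0.38 by the mean of probe sets, and both drugs 0.25 by it and 0.24 centred.

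Leaving out 1 array gave 20 to 30 members for CP70 against A2780, 1 to 22 for decitabine, 0 to 31 for PXD101 and 1 to 21 for both against CP70, 0 to 2 for decitabine against PXD101, 1 to 2 for both against PXD101 and 0 to 20 for the interaction. Medians ran from 0.05 to 0.30 for CP70 against A2780, 0.04 to 0.22, 0.18 to 0.37 and 0.07 to 0.30 against CP70, -0.14 to -0.07 for decitabine against PXD101 and -0.09 to -0.02 for both against PXD101. The number of arrays limits the precision.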
